A study of Mus musculus with 2 samples.

Results

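Retained-intron transcripts are annotated RNAs that keep sequence which the coding transcripts of the same gene splice out. All 21421 such transcripts whose gene also has a protein_coding transcript were taken from the GENCODE M21 mouse annotation, by the biotype retained_intron. They lie in 9120 genes and are a subset of 141767 annotated transcripts, of which 21848 carry the biotype in all. Their levels were measured by total RNA-seq in 2 libraries of left cerebral cortex from 4-day-old female mice of the F1 hybrid strain B6CASTF1/J, 300 ng of RNA each, with ERCC spike-in RNAs added. The labels number the libraries as biological replicates 1 and 2 and name separate tissue samples, but give both the same donor identifier and do not say that they are separate animals. No genotype, treatment or tissue was contrasted, so all values below describe 1 group, and with 1 library on each side no test between libraries could be made.

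An intron that stays in a polyadenylated RNA can keep that RNA in the nucleus, where it may be spliced later, be degraded or wait as a store; such introns are often called detained. When the RNA reaches the cytoplasm, a stop codon inside the intron usually exposes it to nonsense-mediated decay. The best known cases in mammals are genes for splicing factors and for the CLK kinases that phosphorylate them, where retention takes part in control of the gene's own output, and presynaptic genes whose terminal introns Ptbp1 keeps from being spliced in non-neuronal cells and neural precursors. Total RNA holds unspliced precursors as well as mature RNA, and the tables do not separate a precursor read from a read of a stable retained-intron transcript. In bulk tissue, fewer cells of a type and less RNA per cell cannot be told apart.

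Each library had a transcript table made directly from the reads, called the direct-read table here, and another made from transcriptome alignments, called the aligned-read table. Both give TPM, a count divided by effective length, the number of positions where a fragment can start, and scaled to a fixed total per library. The direct-read tables summed to 29886335 estimated counts in replicate 1 and 29926132 in replicate 2, of which retained-intron transcripts held 1131421 and 1363283. The aligned-read tables summed to 29280729 and 28809311 expected counts over the same annotated transcripts and spike-ins, with 1051993 and 1259995 on retained-intron transcripts. A transcript listed at 0 may still have had up to 3 counts, by counting error only. Of the tissue's markers, all 6 neuronal genes and all 5 genes of astrocytes and radial glia reached 1 TPM in each library.

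The name covers models of very different build. Only 6459 of the 21421 transcripts (30.2%) span at least 1 whole intron of a coding transcript, 4748 of them exactly 1, and the most that any transcript spans is 11. Another 14833 span no whole intron but hold intronic bases, and the remaining 129 have neither. In 36 of those that span a whole intron, every base of it is exonic in other coding transcripts of the gene. The median transcript was 875 bases long, against 1921 for the protein_coding transcripts of the same genes, and 41.0% of its bases were intronic. A gene had 2 such transcripts at the median and 16 at most. On the same strand, 954 transcripts (4.45%) overlap another annotated gene, whose reads cannot be separated from theirs where the 2 share sequence.

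By the definition used, the introns kept whole were short. There were 7746 distinct ones in 3964 genes, or 5.51% of the 140575 introns of coding transcripts in the genes with a retained-intron transcript. Their median length was 255 bases, against 1365 for all of those introns, and 42.2% were under 200 bases, against 13.7%. The place in the transcript differed less, since 14.2% of retained introns were the last of their transcript against 13.8% of all, and 13.8% were the first against 15.8%. Of the retained introns, 98.3% began with GT and ended with AG. The first 5 letters were GTGAG in 29.7% and GTAAG in 21.3%, and the median GC content was 51.3%.

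The splice sites of introns in the CLK kinases are shown first because these genes carry the clearest shares below. Sequences are those of GENCODE M21 transcripts on GRCm38, given 5′ to 3′ on the transcribed strand, and all of the introns shown lie between coding exons. Capitals mark the terminal GT and AG of the intron. The retained model Clk1-204 keeps 3 whole introns, among them intron 3 at chr1:58420212-58421082 (minus strand, 871 bases) and intron 4 at chr1:58419734-58420120 (minus strand, 387 bases). Clk4-213 keeps 4, among them intron 3 at chr11:51272023-51273077 (plus strand, 1055 bases) and intron 4 at chr11:51273169-51273559 (plus strand, 391 bases). The first 20 and last 30 bases of each are:
Clk1 intron 3, start: GTatgagtgccttttaaacg
Clk4 intron 3, start: GTatgagtggtttgttttta
Clk1 intron 3, end: gtgctggtgccgcccacttgacgtgtccAG
Clk4 intron 3, end: gatcttggtgctgcccacttgccgttccAG
Clk1 intron 4, start: GTatagaatatttttcaaca
Clk4 intron 4, start: GTatagaatatttttcaaca
Clk1 intron 4, end: ttatgaataataattattcctcttttttAG
Clk4 intron 4, end: ttagacctctctttctctcccttactttAG

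Intron 4 opens with 23 identical bases in Clk1 and Clk4, and intron 3 with 9. Compared position by position from the 3′ end with no gap allowed, 14 of the last 30 bases are identical in each of the introns. The printed ends of intron 3 share a run of bases that lies out of step, so a count with gaps would be higher there. Such a count was not made. Whether reads from these introns could be assigned to either paralog was not tested. None of the 4 introns opens with GTAAG or GTGAG. The third whole intron of Clk1-204, intron 6 at chr1:58417180-58417266 (minus strand, 87 bases), does open with GTAAG and is short enough to print whole:
Clk1 intron 6: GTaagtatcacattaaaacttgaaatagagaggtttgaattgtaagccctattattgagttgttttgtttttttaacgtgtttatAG

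Short retained introns from other genes that the results turn on show the range of base composition. GC content was 72.5% in intron 2 of Mrps26 (chr2:130564228-130564307, plus strand, 80 bases), 71.9% in intron 1 of Rps20 (chr4:3835292-3835483, minus strand, 192 bases), 66.2% in intron 3 of Rgs11 (chr17:26203513-26203577, plus strand, 65 bases), 54.4% in intron 3 of Map4k2 (chr19:6341835-6341902, plus strand, 68 bases) and 27.6% in intron 6 of Clk1. The GC-rich ones are:
Mrps26 intron 2: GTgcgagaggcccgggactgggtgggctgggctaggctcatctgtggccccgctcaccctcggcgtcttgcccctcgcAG
Rps20 intron 1: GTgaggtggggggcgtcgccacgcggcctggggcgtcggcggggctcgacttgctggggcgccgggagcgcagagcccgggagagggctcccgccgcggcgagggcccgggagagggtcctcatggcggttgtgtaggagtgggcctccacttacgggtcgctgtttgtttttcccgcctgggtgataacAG
Rgs11 intron 3: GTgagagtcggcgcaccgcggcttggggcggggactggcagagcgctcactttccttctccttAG
Map4k2 intron 3: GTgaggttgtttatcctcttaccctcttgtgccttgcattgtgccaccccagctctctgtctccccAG

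A longer example comes from Gria2, which encodes an AMPA-type glutamate receptor subunit. Gria2-204 keeps intron 10 at chr3:80707259-80707698 (minus strand, 440 bases), whose GC content was 35.2% and whose ends are:
Gria2 intron 10, start: GTaagtttttaatgttacag
Gria2 intron 10, end: ttcctgttttttttctttcttcccttacAG

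A few retained introns belong to the minor class, which the U12-type spliceosome removes and which opens with ATATCCTT or GTATCCTT. By these letters on the transcribed strand there were 35, or 0.452% of the 7746, with ATATCCTT in 10 and GTATCCTT in 25. Counting an intron again for each transcript that keeps it gave 40 cases, and in 16 of them the transcript reached 1 TPM in all 4 measurements, that is 2 libraries in 2 tables. Kinases of the MAP kinase pathways were among these, and 2 of them were named after their values were seen. Mapk8-211, which keeps intron 7 at chr14:33388983-33390241 (minus strand, 1259 bases), was at 3.34 and 4.17 TPM in replicates 1 and 2 of the direct-read table, and at 2.19 and 2.75 in the aligned-read table. Mapk11-204, which keeps intron 8 at chr15:89145176-89145374 (minus strand, 199 bases), was at 5.66 and 5.84, and at 4.25 and 5.43. Both were thus low but present in each library. Capitals mark the motif at the start and the last 2 bases at the end:
Mapk8 intron 7, start: GTATCCTTatctttggccta
Mapk8 intron 7, end: ggagtatttttcttagctacttgataatAG
Mapk11 intron 8: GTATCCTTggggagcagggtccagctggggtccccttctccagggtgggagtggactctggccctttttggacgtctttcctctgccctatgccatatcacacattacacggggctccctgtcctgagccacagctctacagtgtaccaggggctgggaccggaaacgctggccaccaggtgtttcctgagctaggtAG

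Retained-intron transcripts were detected about as often as coding transcripts but at lower levels. With 1 TPM or more required of each library, 10271 of 21421 (47.9%) were detected in the direct-read table, against 50.3% of the protein_coding, 36.7% of the nonsense_mediated_decay and 29.7% of the processed_transcript models of the same genes. The shares in the aligned-read table were 39.9%, 44.9%, 24.9% and 21.9%, in the same order. Among detected transcripts the median TPM was 3.43 for retained-intron models and 9.48 for protein_coding models in the direct-read table. Models with a whole intron were detected more often (54.9% in the direct-read table) than models with only part of one (44.9%). Both tables detected 7182 transcripts in 4045 genes. For 4932 transcripts the lower bound of the interval deposited with the aligned-read TPM, whose level is not given in the sources used here, was at least 1 in both libraries, and 1654 transcripts were listed at 0 in both libraries of both tables.

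Together they held a larger part of the coding genes' TPM than of their counts. The share of TPM was 9.30% in replicate 1 and 10.4% in replicate 2 of the direct-read table (9.87% ± 0.803, SD, n = 2), and 8.20% and 9.57% in the aligned-read table (8.89% ± 0.969, SD, n = 2). By estimated counts the share was 4.30% and 5.19%, since the models are short and TPM divides by length. In each of these measures replicate 2 was the higher library. Retained-intron models of at least 1000 bases alone held 3.16% ± 0.521 (SD, n = 2) of the TPM, a cut that was added after the values were seen.

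Within a gene, the share is the summed TPM of its retained-intron transcripts as a percent of the TPM of all its transcripts. Over the 6955 genes with a gene TPM of at least 5, the median share was 11.5% in replicate 1 and 13.5% in replicate 2 of the direct-read table, and 11.1% and 13.6% in the aligned-read table. The middle 50% of genes lay between 5.30% and 25.7% in the direct-read table. In 907 genes (13.04%) the share was under 5% in both libraries and both tables, and in 1504 (21.6%) it was at least 20% in all of them. The genes kept their order between libraries (Spearman 0.912 over these genes in the direct-read table, 0.918 in the aligned-read table) and less so between tables (0.807). These correlations run across genes that share libraries and are a description only. In the aligned-read table, the share from TPM and the summed percent values deposited per transcript differed by at most 0.476 percentage points.

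**Figure D1:**
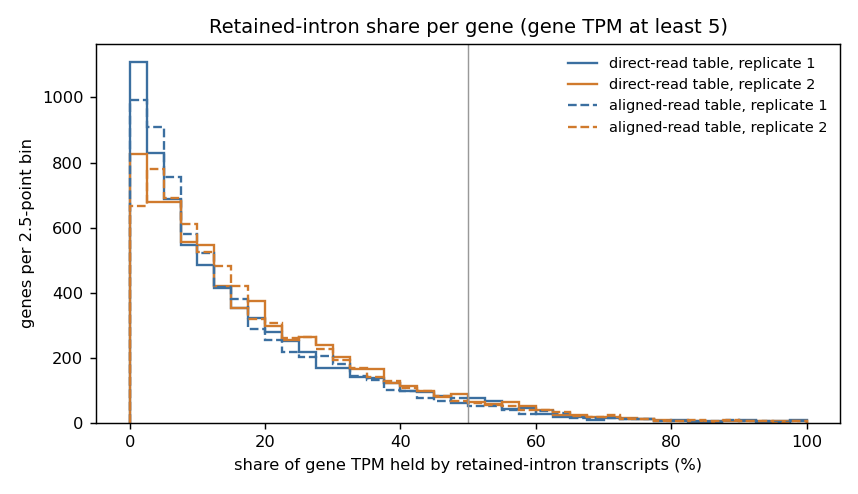
Number of genes in bins of 2.5 percentage points by the share of gene TPM that retained-intron transcripts held, for 6955 genes with a gene TPM of at least 5. Blue lines are replicate 1 and orange lines replicate 2, solid for the direct-read and dashed for the aligned-read table; the grey line marks 50%, and in both tables the orange lines lie below the blue ones in the lowest bins.

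The share went with how many retained-intron models a gene has in the annotation. Its median rose from 5.05% and 6.45% (replicates 1 and 2, direct-read table) in the 2566 genes with 1 model to 18.1% and 20.7% in the 1742 genes with 3 or 4, and to 40.7% and 43.7% in the 156 genes with 8 or more. In the aligned-read table the same groups had medians of 4.87% and 6.22%, 17.2% and 20.6%, and 37.8% and 44.0%. The most abundant genes had the lowest shares: at a gene TPM of 200 or more, the median was 4.21% and 5.45% over 489 genes, against 13.4% and 16.2% over the 1952 genes between 5 and 20. These are descriptions of an annotation as well as of RNA, since a retained intron with no model of its own is not counted here.

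The highest TPM values belonged to short models of very abundant genes, and there the tables parted. Of the 12 genes with the highest summed retained-intron TPM in the direct-read table, only Rps16 and Rps20 had a share of at least 50% in the aligned-read table. Tubb5, Tpt1, Ppia, Ywhae and Ptms were under 50% in the direct-read table as well. Tubulin and ribosomal protein genes showed the gap. Tubb5, a beta-tubulin of immature neurons and dividing cells, had a share of 38.5% and 42.5% in the direct-read table and 4.13% and 6.19% in the aligned-read table. Its model Tubb5-204 of 979 bases was at 970 and 1010 TPM, against 46.7 and 71.9. Rps27, a protein of the small ribosomal subunit, had 99.5% and 99.6% against 1.44% and 1.07%. For Rps27 the direct-read table put 0 TPM on the coding transcript Rps27-201, which is 345 bases long and had an effective length of 82.2 there, and 762 and 699 TPM on the retained model Rps27-209 of 546 bases. The aligned-read table put 571 and 560 TPM on Rps27-201 and 2.89 and 2.24 on Rps27-209. Thus each table was repeatable across the libraries and the tables assigned the gene's reads to different models.

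The disagreement ran in both directions. Rps25 (92.4% and 94.1% against 1.352% and 1.59%), Atp5k (100% and 95.6% against 3.41% and 4.39%) and Ndufa3 (94.2% and 93.8% against 1.67% and 1.62%) were far higher in the direct-read table. Rps23 was listed at 0 there and had 81.8% and 82.5% in the aligned-read table. Atp5j (8.01% and 7.49% against 88.1% and 86.1%), Grcc10 (2.52% and 2.60% against 74.6% and 75.2%) and Uchl1 (2.03% and 2.64% against 75.6% and 73.1%) were also far higher in the aligned-read table. Uchl1 is a neuronal ubiquitin hydrolase, and Atp5k, Atp5j and Ndufa3 are subunits of mitochondrial respiratory complexes. In 173 genes the mean shares differed by over 30 percentage points, while the median difference was 2.90 points. Over all retained-intron models of 500 to 1000 bases the summed mean TPM was 49612 in the direct-read and 21958 in the aligned-read table. This gap was wider than for models of 2000 bases or more (17327 and 11095), and under 500 bases the sums were 6900 and 7482. Protein_coding models of the same genes had 90610.5 and 38886 at 500 to 1000 bases, and 210420 and 146352 at 2000 or more. The gap was thus not particular to retained-intron models, and 1 TPM is not the same cut in both tables.

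**Figure D2:**
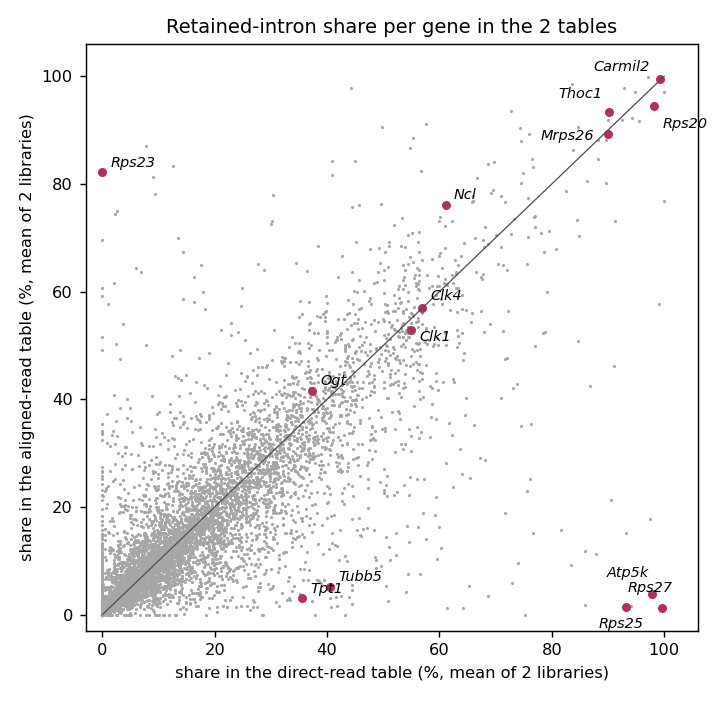
Share of gene TPM held by retained-intron transcripts in the direct-read table (horizontal axis) and the aligned-read table (vertical axis), each the mean of 2 libraries, for genes with a gene TPM of at least 5. The line marks equal shares; Rps27, Rps25 and Atp5k sit at the lower right and Rps23 at the upper left, while Carmil2, Rps20, Clk1, Clk4 and Ogt lie near the line.

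Retained-intron transcripts held at least 50% of the gene in both libraries in 325 genes (4.67%) by the direct-read table and in 300 (4.31%) by the aligned-read table. The tables shared 175 genes, which is 53.8% of the first list and 58.3% of the second. The shared genes had a median of 5 retained-intron models each, against 2 over all 6955 genes, and their leading model had a median length of 831 bases with 22.1% intronic bases, against 935 bases and 43.6%. So the leading models of these genes held fewer intronic bases than usual. With only models of at least 1000 bases the shared count was 36, and with only models that are at least 50% intronic it was 4, both cuts added after the values were seen. Just inside the threshold, 130 genes had a mean share of 50% to 55% in the direct-read table, and just outside it 128 had 45% to 50%.

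Of the 12 genes with the highest share in the direct-read table among those with a majority in both tables, Carmil2 and Mrps26 were each read mostly as 1 model that keeps 1 short intron whole. Carmil2, a regulator of actin capping protein, had a share of 99.1% and 99.6% in the direct-read table and 99.4% and 99.6% in the aligned-read table. Carmil2-201, of 2526 bases with 163 intronic ones, was at 23.0 and 24.0 TPM, beside 0.255 and 0.124 for the coding transcript with the highest level. Mrps26, a mitochondrial ribosomal protein, had 89.6% and 90.4%, and 89.0% and 89.4%. Its Mrps26-201 was at 42.3 and 39.3 TPM against 4.91 and 4.17 for the coding transcript Mrps26-202, and its intronic bases are the 80 of intron 2 printed above. In both genes the libraries and the tables lay within 2 percentage points of each other.

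The remaining genes of that group were Rps20, BC003965, Cox7b, Gm49601, Ccdc142, Rgs11, Mrpl57, Map4k2, Thoc1 and Sytl2. Rps20, of the small ribosomal subunit, had the highest level, with a retained-intron TPM of 833 and 741 and a share of 98.2% in both libraries of the direct-read table and 94.5% in both of the aligned-read table. Rps20-201, with intron 1 printed above, was at 395 and 392 TPM there and at 225 and 215 in the aligned-read table. Thoc1, a subunit of the THO complex that couples transcription to mRNA export, has 11 retained-intron models, which held 88.6% and 91.8%, and 92.5% and 94.4%. Rgs11, a regulator of G-protein signalling, had 89.8% and 95.9%, and 96.3% and 99.1%, over 8 models. Map4k2, a kinase upstream of JNK, had 91.5% and 90.9% but 73.0% in both libraries of the aligned-read table. Cox7b, a cytochrome c oxidase subunit, likewise fell apart between tables, with 99.2% and 99.0% against 60.9% and 54.7%. Models of Gm49601 held 95.6% and 95.7%, and 92.4% and 90.9%; part of them overlap another gene on the same strand.

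Some abundant genes kept a majority share on models of at least 1000 bases; they were named after their values were seen. Nucleolin, Ncl, an abundant nucleolar protein, had 60.5% and 59.2% on such models in the direct-read table and 67.7% and 66.3% in the aligned-read table. Ncl-202, of 3072 bases with 2 whole introns, was at 116 and 104 TPM, and at 80.0 and 72.9. Prelid1, a mitochondrial lipid transfer protein, had 74.3% in both libraries of the direct-read table and 91.1% and 89.7% in the aligned-read table, on Prelid1-202 with 82 intronic bases in 1204. Rsrp1, named for its arginine- and serine-rich sequence, had 50.02% and 50.6%, and 64.9% and 69.7%. The 4 genes with a majority on models that are at least 50% intronic were Eml5, Ccl25, Zswim9 and Tgfbr3l. Of these Eml5 had the highest gene TPM, 37.3 and 47.4, with 53.3% and 56.7%, and 52.5% and 56.2% in the aligned-read table.

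Lists of genes of the splicing machinery were among those with the highest shares. The lists were chosen by function, with earlier results of these data known, so their order is a description. The lists were not matched for the number of retained-intron models per gene, with which the share went. Its part in their order was not tested. Of the 16 SR proteins and SR-directed kinases with a retained-intron model and a gene TPM of at least 5, 7 had a share of at least 20% in both libraries and tables (43.8%, beside 21.6% over all genes), and 3 had a majority in all. The median share of the list was 18.3% and 22.7% in replicates 1 and 2 of the direct-read table and 21.1% and 22.8% in the aligned-read table, beside 11.5% and 13.5%, and 11.1% and 13.6%, over all genes. SR proteins bind exonic enhancers and recruit the spliceosome, and CLK kinases phosphorylate them in the nucleus.

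All 4 CLK kinases had high shares. Clk4 was at a gene TPM of 74.9 and 78.1, and its 7 retained-intron models held 54.7% and 59.2%, and 54.3% and 59.6% in the aligned-read table. Clk1 was at 50.9 and 64.8, and its 7 models held 57.5% and 52.5%, and 54.9% and 50.7%. As a share of all transcripts of the gene, both tables and libraries thus put Clk1 and Clk4 between 50% and 60%, with replicate 2 the higher library for Clk4 and the lower for Clk1. With only retained-intron and protein_coding transcripts in the denominator, the mean share in the direct-read table was 90.8% for Clk1 and 67.3% for Clk4. Clk1-204, whose introns are printed above, was at 13.5 and 16.1 TPM (8.00 and 10.6 in the aligned-read table), and the interval deposited for replicate 1 of the latter runs from 6.85 to 8.46. Clk4-213 was at 5.85 and 7.97 (4.01 and 5.46). Clk2 had a share of 37.4% and 43.6%, and 41.9% and 46.6%. Clk3 had 30.7% and 32.8%, and 48.4% and 45.7%, so that here the tables differed by more than the libraries.

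The SR proteins spread from high to low. Srsf11 had the highest share, 57.4% and 55.3% in the direct-read and 68.8% and 66.1% in the aligned-read table, over 11 models. Its most abundant model, Srsf11-208, is 82.3% intronic and was at 26.9 and 30.5 TPM. Srsf7 followed in the direct-read table with 33.2% and 30.9%, and 24.2% and 21.1%, where Srsf1 lay above it in replicate 2. Srsf2 had 18.2% and 23.1%, Srsf3 15.5% and 18.0%, and Srsf1 12.1% and 18.3% in the direct-read table; in the aligned-read table they had 19.3% and 24.4%, 11.9% and 14.5%, and 22.9% and 26.0%. With only retained-intron and protein_coding transcripts in the denominator, the mean share of Srsf3 in the direct-read table went from 16.8% to 32.9%. Srsf4 was lowest with 3.63% and 6.05%. Srsf9, Srsf10 and Srsf12 have no retained-intron model in the annotation, so no share could be given.

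Srsf5 and Srsf6 differed most between the libraries. Srsf5 rests mainly on Srsf5-212, which keeps intron 6 whole at chr12:80947866-80949094 (plus strand, 1229 bases), between coding exons. Its first 20 and last 30 bases, with the terminal GT and AG in capitals, are:
Srsf5 intron 6, start: GTttgttgaaatacagtttt
Srsf5 intron 6, end: ctctccttaacataattgtcttgtgttaAG

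Srsf5-212 was at 20.2 TPM in replicate 1 and 40.4 in replicate 2 of the direct-read table, and at 11.6 and 26.4 in the aligned-read table. The gene as a whole was at 267 and 285 TPM, so that its retained-intron share was 9.27% and 16.9%, and 10.4% and 20.1% in the aligned-read table. Srsf6-204 was at 11.2 and 19.7 TPM, and at 7.19 and 13.2, with the gene at 113 and 112, and the mean Srsf6 share of 13.7% became 20.95% with the narrower denominator. In both genes the retained-intron model was higher in replicate 2 in both tables while the level of the whole gene differed little.

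**Figure D3:**
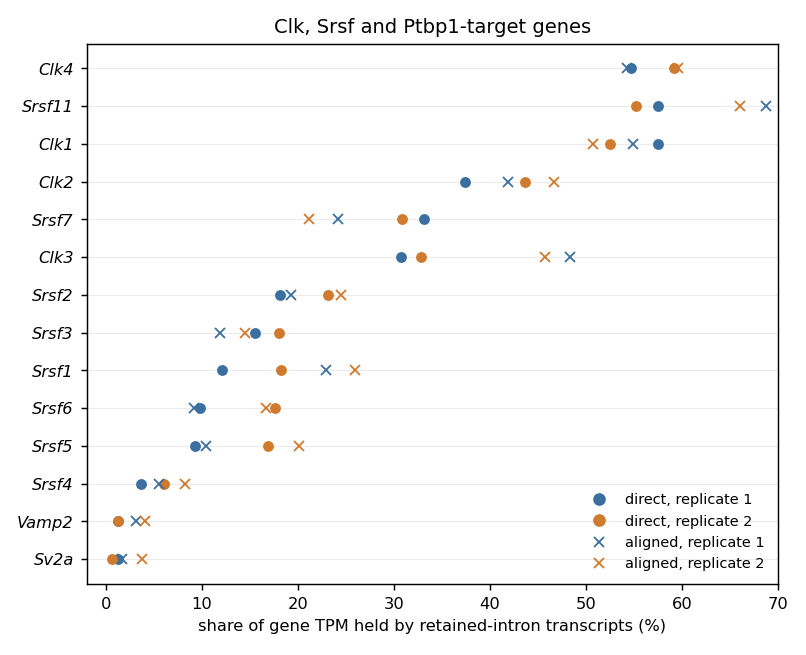
Share of gene TPM held by retained-intron transcripts (horizontal axis, %) in each Clk and Srsf gene with such a model and in Vamp2 and Sv2a. Circles are the direct-read and crosses the aligned-read table, blue for replicate 1 and orange for replicate 2; Clk1, Clk4 and Srsf11 lie above 50% in every case, and Vamp2 and Sv2a under 5%.

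The core spliceosome and its cofactors resembled the SR list. Of 39 genes, 17 (43.6%, beside 21.6% over all genes) had at least 20% in both libraries and tables. The median share was 20.01% and 22.7%, and 18.5% and 22.001%. Prpf39, a U1 snRNP component, had 59.0% and 66.3%, and 64.3% and 67.3%. Rbm5, an RNA-binding regulator of splice-site choice, had 51.3% and 54.4%, and 49.5% and 55.4%, with 13 models. Its Rbm5-219 spans introns 5 and 6 whole and was at 26.4 and 36.5 TPM. U2af1l4, a relative of the small U2AF subunit, had 58.4% and 51.6% but 36.6% and 29.9% in the aligned-read table, and its leading models overlap another annotated gene. Snrpd2, an Sm protein of the snRNP core, stood at the other end with 2.504% and 3.57%.

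Other regulators of splicing had lower shares. The 19 hnRNP genes had a median of 6.66% and 8.91%, and 4.08% and 4.98% in the aligned-read table. Of them 5 (26.3%, beside 13.04% over all genes) were under 5% in every case. Hnrnpa2b1 had 32.0% and 36.5%, and 20.1% and 25.6%. Hnrnpa3 had 1.11% and 1.32%. The 16 neuronal splicing regulators had a median of 7.39% and 9.01%, and 7.07% and 9.29%. Ptbp2, the neuronal paralog of Ptbp1, had 39.7% and 29.4%, and 14.3% and 16.6%. Srrm3, a regulator of neuronal microexons, had 30.7% and 43.3%, and 23.1% and 34.6%, higher in replicate 2 in both tables.

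Genes whose terminal introns Ptbp1 is known to repress in non-neuronal cells had low retained-intron shares in this tissue. Vamp2, a SNARE protein of synaptic vesicles, was at 550 and 535 TPM, of which its 2 retained-intron models held 1.23% and 1.25% in the direct-read and 3.16% and 4.07% in the aligned-read table. Sv2a, a synaptic vesicle glycoprotein, was at 187 and 172 TPM, with 1.25% and 0.693%, and 1.66% and 3.74%. Kif5a has no retained-intron model in the annotation. Of the whole presynaptic list, 8 of 16 genes were under 5% in every case (beside 907 of 6955 over all genes), and the median was 1.70% and 3.93%, and 2.40% and 3.90%. Napa, the alpha-SNAP cofactor that takes SNARE complexes apart, was the 1 gene with at least 20% throughout, at 43.9% and 43.6%, and 47.7% and 52.7%. Unc13a, a vesicle priming factor, had 16.9% and 24.9%, and 18.4% and 27.0%.

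Postsynaptic receptors, channels and scaffolds were higher than presynaptic genes. Their median over 25 genes was 11.9% and 15.6%, and 11.3% and 14.3%, near the value for all genes. Gria2 had 35.3% and 36.2%, and 38.9% and 39.8%, at a gene TPM of 227 and 276. Gria2-204, with intron 10 printed above, was at 32.1 and 39.6 TPM (23.1 and 29.0 in the aligned-read table), and its deposited interval for replicate 1 runs from 21.03 to 23.5. Homer3, a postsynaptic scaffold, had 21.6% in replicate 1 and 46.3% in replicate 2, and 22.3% and 45.6% in the aligned-read table, at a gene TPM of only 15.7 and 20.3. Models of Dlg4, which encodes PSD-95, were listed at 0 in the direct-read table and held 3.62% and 4.20% in the aligned-read table.

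Surveillance factors and helicases had medians above the value for all genes, with more genes of high share in the first list than in the second. Of 19 genes of RNA decay and surveillance, 8 (42.1%, beside 21.6% over all genes) had at least 20% throughout. Their median was 15.8% and 21.04%, and 20.5% and 23.9%. Zfc3h1, part of a nuclear exosome adaptor, had 37.6% and 42.4%, and 37.0% and 39.9%. Smg9, of the complex that phosphorylates Upf1, had 41.5% and 59.4%, and 53.2% and 47.1%, so that the tables put different libraries higher. Rbm8a, a subunit of the exon junction complex, had 52.6% and 60.1%, and 28.6% and 37.0%. The nuclear poly(A)-binding protein gene Pabpn1 had 1.124% and 1.245%. Of 23 RNA helicases 4 (17.4%, beside 21.6% over all genes) had at least 20% throughout. Their median was 17.4% and 18.1%, and 14.4% and 17.6%, with Ddx50 at 54.9% and 48.6%, and 44.7% and 40.9%, and Ddx5 at 0.776% and 0.899%.

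Ogt and Mat2a, whose detained introns are known from other systems, are given here with Mettl16 and the aminoacyl tRNA synthetases. Their shares differed. Oga, listed with Ogt, did not match the annotation by that name. Ogt, the enzyme that adds O-GlcNAc to proteins, had 37.1% and 37.3% in the direct-read and 41.4% and 41.8% in the aligned-read table. Its Ogt-204, with 1 whole intron and 77.0% intronic bases, was at 38.8 and 47.5 TPM (23.5 and 29.6). Mat2a, which makes S-adenosylmethionine, had 17.2% and 18.8%, and 14.0% and 20.2%. Mettl16, the RNA methyltransferase that controls Mat2a splicing, was listed at 0 in replicate 1 and had 4.46% in replicate 2, and had 3.21% and 3.41% in the aligned-read table; its mean of 2.23% became 3.87% with the narrower denominator. Of the 24 aminoacyl tRNA synthetases, 6 (25%, beside 21.6% over all genes) had at least 20% throughout and 6 (25%, beside 13.04%) were under 5%, and the median was 8.35% and 13.1%, and 8.77% and 12.99%. Tars had 61.8% and 62.9%, and 40.7% and 46.7%. Sars, the most abundant of those under 5%, had 1.17% and 1.92% in the direct-read table. Vars had 43.6% and 48.7%, and 37.9% and 46.4%.

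The 19 cell cycle genes had a median of 18.7% and 21.4%, and 13.6% and 19.2%, near that of the SR and spliceosome lists in the direct-read table. Of them 5 (26.3%, beside 21.6%) had at least 20% throughout. Ccnl2 (59.5% and 65.0%, and 59.5% and 66.8%) and Ccnl1 (50.7% and 63.0%, and 49.6% and 58.3%) encode cyclins L, which act with CDK11 in transcription and splicing rather than in the cycle itself. Cdk4, a kinase of the G1 phase, had 55.3% and 56.4%, and 65.1% and 58.0%, of which the model Cdk4-209, of 468 bases and 5.34% intronic, was at 72.3 and 55.5 TPM. Ccnd2, a cyclin partner of Cdk4, had 2.08% and 2.83%. The 40 chromatin regulators had a median of 9.30% and 11.9%, and 11.99% and 12.9%, with Eed, of the Polycomb complex PRC2, at 47.4% and 32.1%, and 59.1% and 53.5%, and Hdac1, a histone deacetylase, at 44.6% and 40.4%, and 35.4% and 38.9%.

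Low shares were also those of several lists of abundant structural and tissue-specific genes. Of 23 cytoskeletal genes 11 (47.8%, beside 13.04% over all genes) were under 5% throughout, and the median was 3.10% and 3.77%, and 3.59% and 5.04%. Actb was at 5589 and 5373 TPM with a share of 0.523% and 0.528%, while Ank2, a membrane scaffold of axons, had 21.9% and 22.8%, and 26.2% and 28.3%. Of the Ank2 share, 15.9 and 13.6 percentage points in the direct-read table were Ank2-216, a model with 1 intronic base in 2359. Of 17 glial and vascular genes 11 (64.7%, beside 13.04%) were under 5% throughout, with a median of 2.67% and 3.31%, and 1.68% and 2.07%. The 28 cytosolic ribosomal protein genes had a median of 5.67% and 6.77%, and 3.04% and 4.31%, with Rps16 and Rps20 far above and Rps24 at 0.554% and 0.636%. The 22 genes of oxidative phosphorylation had 5.01% and 6.18%, and 6.03% and 6.85%, with Ndufv1, the flavoprotein of complex I, at 42.7% and 39.0%, and 40.6% and 41.6%.

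**Figure D4:**
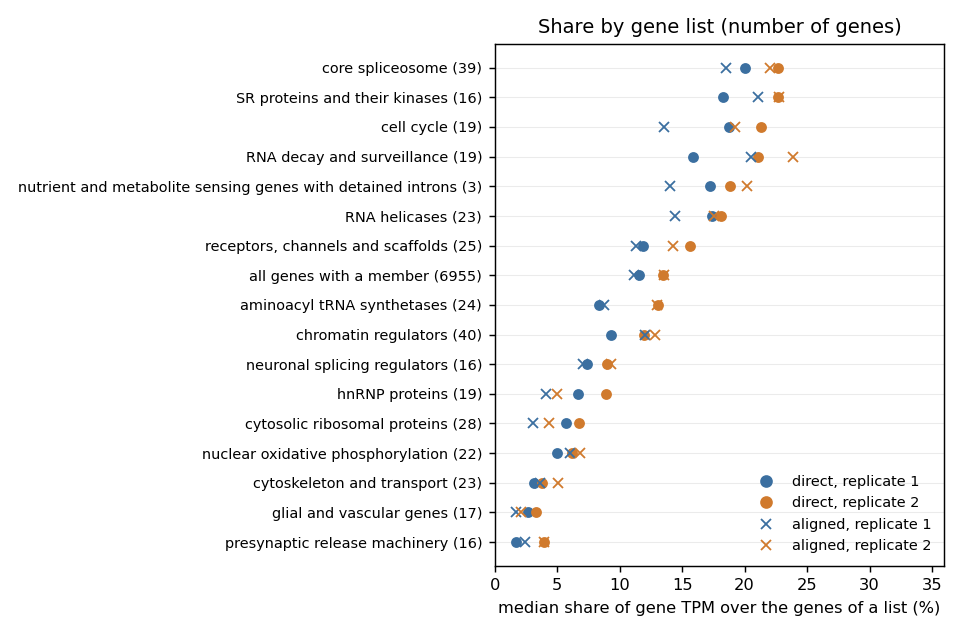
Median share of gene TPM held by retained-intron transcripts over the genes of each list (horizontal axis, %), with the number of genes in parentheses. Circles are the direct-read and crosses the aligned-read table, blue for replicate 1 and orange for replicate 2; the core spliceosome and SR lists lie near 20%, all genes between 11.1% and 13.6%, and presynaptic, glial and cytoskeletal genes mostly under 5%.

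Between the libraries, retained-intron transcripts were on the whole higher in replicate 2. The comparison used the log2 ratio of TPM + 0.1 in replicate 2 to that in replicate 1, over transcripts with a mean TPM of at least 1. The median ratio was 0.34 for 12097 retained-intron transcripts in the direct-read table and 0.35 for 10224 in the aligned-read table. Over all annotated transcripts it was 0.13 and 0.12, over the protein_coding transcripts of the same genes 0.03 and 0.05, and over lincRNA, antisense, TEC and sense_intronic transcripts 0.55 and 0.46. With scaling by edgeR's TMM factors the median of all transcripts moved to -0.01 and that of retained-intron transcripts to 0.21. The distance between them was 0.21 by TPM and 0.22 by TMM and by DESeq2 size factors. In terms of genes, the share was higher in replicate 2 in 4828 of 6955 (69.4%) by the direct-read and in 5001 (71.9%) by the aligned-read table.

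Past a 2-fold ratio the picture was less marked within each table alone. By the direct-read table, 1601 of 12097 retained-intron transcripts (13.2%) were at least 2-fold higher in replicate 2, beside 11.2% of all annotated transcripts, and 625 (5.17%) were at least 2-fold lower, beside 6.04%. By the aligned-read table, 1200 of 10224 (11.7%) were higher, beside 8.85%, and 298 (2.91%) lower, beside 4.68%. These shares of single tables lie close to the background, and they compare 2 libraries, not conditions. Of 2847 transcripts with a mean TPM of at least 5 in the direct-read and 2 in the aligned-read table, 68 were at least 2-fold higher and 13 at least 2-fold lower in replicate 2 in both tables, a selection made after the values were seen. These are 2.39% and 0.457%, beside 0.894% and 0.415% of the 20013 annotated transcripts under the same filter, which include them. With both tables required, the share higher in replicate 2 thus stood further above its background in relative terms. The share lower stayed near its background.

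The median library difference grew with intronic content, while the share past 2-fold did not. In the direct-read table the median log2 ratio was 0.12 for transcripts with under 10% intronic bases, 0.19 for 10% to 25%, 0.31 for 25% to 50%, 0.38 for 50% to 75% and 0.49 for 75% or more. By the aligned-read table it went from 0.15 to 0.49 over the same classes. In the class of 75% or more, 91.5% of 2224 transcripts were higher in replicate 2, against 58.4% of 965 in the class under 10%. At least 2-fold higher were 7.91% of the former and 16.6% of the latter, and at least 2-fold lower 0.450% and 13.1%. In the aligned-read table the shares 2-fold higher were 8.24% and 12.98%. The order held among transcripts with a mean TPM of at least 5 (0.09 to 0.44 in the direct-read, 0.10 to 0.44 in the aligned-read table) and among those of at least 1000 bases (0.16 to 0.50, and 0.18 to 0.51), both splits added after the values were seen.

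**Figure D5:**
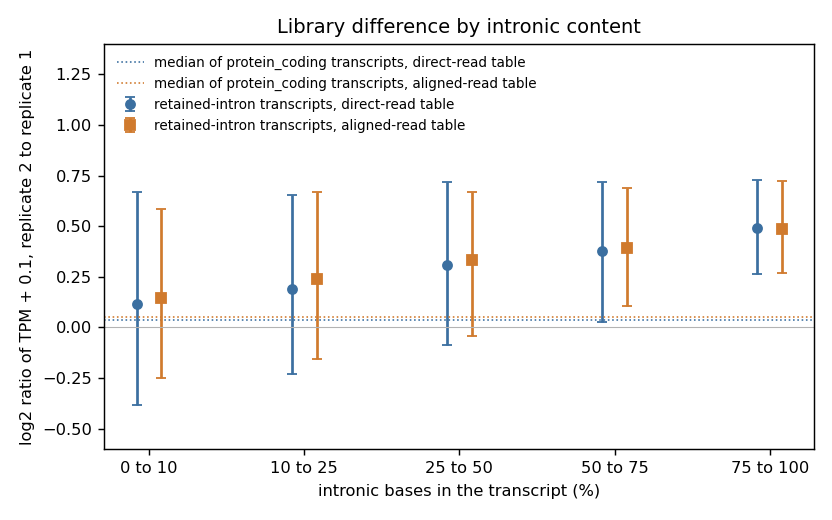
Log2 ratio of TPM + 0.1 in replicate 2 to replicate 1 (vertical axis) for retained-intron transcripts with a mean TPM of at least 1, by the percent of their bases that is intronic. Points are medians and bars run from the lower to the upper quartile over transcripts, blue circles for the direct-read and orange squares for the aligned-read table; dotted lines are the medians of protein_coding transcripts of the same genes, 0.03 and 0.05, and the medians climb from 0.12 and 0.15 to 0.49.

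The libraries also differed in markers of other tissue. The summed TPM of 3 choroid plexus genes was 212 in replicate 1 and 3.42 in replicate 2, and that of 2 haemoglobin genes 324 and 41.3, while 6 neuronal genes summed to 3276 and 3180 and 5 genes of astrocytes and radial glia to 1158 and 1077. The part of these in the library difference was not tested. In this design the tissue sample and the preparation of its library cannot be told apart.

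Among transcripts that moved in both tables were long, well-covered models, though these were the smaller part. Only 24 of the 68 higher and 2 of the 13 lower in replicate 2 had at least 1000 bases. The transcripts below were named after their values were seen. Arpp21-208, of 5320 bases in a cAMP-regulated phosphoprotein gene, was at 14.6 and 32.6 TPM (1123 and 2452 estimated counts), and at 8.87 and 21.02 in the aligned-read table. Celf2-218, of 4143 bases and 89.5% intronic, in a gene for a neuronal splicing regulator, was at 6.38 and 13.6 TPM (374 and 780 estimated counts), and at 4.48 and 9.94. Map1b-204, of 1364 bases in the gene of a microtubule-associated protein of growing axons, was at 7.35 and 15.8, and at 5.90 and 12.9. All of them were higher in replicate 2. Vps16-202, a model with no intronic base in a gene for vacuolar sorting, went the other way with 27.1 and 11.7 TPM, and 13.3 and 6.50.

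The largest ratios of the direct-read table were of another kind. The 6 transcripts furthest up in replicate 2 at a mean TPM of at least 2 were Nudt3-205, Cul1-207, Grk2-208, Ttc5-203, Ldb1-204 and Srsf1-203, and the 6 furthest down were Dpysl5-205, Fh1-202, Pygb-205, Slc22a23-202, Mzt2-203 and Tdg-207. All 12 were at or near 0 in 1 library, so that no fold is given, and their models are 443 to 900 bases long. Srsf1-203 was listed near 0 in replicate 1 and at 11.2 TPM in replicate 2 of the direct-read table, but at 16.8 and 23.5 in the aligned-read table. Dpysl5-205, in the gene of an axon guidance protein, was at 28.5 TPM and near 0, but at 16.6 and 23.7 in the aligned-read table. Nudt3-205 was near 0 and at 16.0 TPM, but at 79.9 and 80.6 in the aligned-read table. Of the 12, Cul1-207, Grk2-208 and Ldb1-204 were more than 2-fold higher in replicate 2 in the aligned-read table too. Fh1-202, Mzt2-203 and Tdg-207, which were down in the direct-read table, were also more than 2-fold higher in replicate 2 there, so that their direction turned.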

How the data were processed

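Total RNA-seq of 2 libraries from left cerebral cortex formed 1 group. Per the deposited file descriptions the assembly was mm10 and the annotation GENCODE M21; aligner, quantifier and version names were not given in the sources used here. Estimated counts and TPM of the direct-read table, and expected counts, TPM, the percent of gene TPM per transcript and interval bounds of the aligned-read table, were used as the authors deposited them; their column names are those of kallisto and RSEM. TPM as deposited divides by effective length, and the authors' quantifiers split reads among overlapping models, so levels of short models depend on the quantifier.

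Members were taken by biotype. Introns of at least 50 bases lying whole inside 1 exon of a member were called retained, and where these overlapped only the shortest was kept. Intronic bases are those in introns and in no exon of coding transcripts of the gene. Sequences came from the GENCODE M21 transcripts; no genome sequence was used. Detection needed 1 TPM or more in each library, gene shares a gene TPM of at least 5, and ratios a pseudocount of 0.1 and a mean TPM of at least 1. With a single group no test between libraries was made; the ratio script was checked on simulated counts. Counting gives a precision that covers counting error only. Alternatives were the other table, other thresholds, 1 library alone, and edgeR 4.0.16 TMM or DESeq2 1.42.0 size factors on estimated counts (0.5 added), in R 4.3.3; the rest used Python 3.11.15, numpy 2.4.6, pandas 2.3.3 and matplotlib 3.10.9.

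Members, thresholds and the 17 gene lists were chosen with earlier results of these data known; of 479 list entries 477 matched the annotation. Named were the 12 genes with the highest summed TPM of retained-intron models; the 12 with the highest share at a gene TPM of at least 10 and at least 50% in both libraries and tables; of each list the 3 genes with the highest share and the most abundant with under 5%; the 6 transcripts with the largest ratio each way at a mean TPM of at least 2; the 4 genes with the largest difference between tables each way; and all Clk, Srsf and Ptbp1-list genes. The text says where others were chosen after their values were seen. Some genes that the rule takes are not reported here.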

Additional observations from a re-analysis of the deposited data

How the results depend on the processing

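No paired analysis was possible because the labels give a single group. Detected retained-intron transcripts were 10271, and 6736 when each library had to reach 2 TPM. Their share of TPM was 9.87%, 8.89% in the aligned-read table, 4.74% by estimated counts and 3.16% with models of at least 1000 bases. The median gene share was 12.5%, 14.4% with only retained-intron and protein_coding transcripts in the denominator, and 4.18% with models of at least 1000 bases. The 325 genes with a majority share became 496 with that denominator, 67 with models of at least 1000 bases and 18 with models at least 50% intronic; the 175 shared by both tables became 36 and 4 with those models. With 1 library at a time the shared count was 224 and 263, the direct-read count 391 and 447, detection 11106 and 12435, the median gene share 11.5% and 13.5%, and the share of TPM 9.30% and 10.4%. Retained-intron transcripts at least 2-fold higher in replicate 2 were 1601 of 12097, and 837 of the same 12097 with a pseudocount of 1. They were 2749 of 16285 at a mean TPM of at least 0.2 and 230 of 3348 at 5. Those 2-fold lower were 625 of 12097, 298 of 10224 in the aligned-read table, 1300 of 16285 at 0.2 and 87 of 3348 at 5. The number of transcripts compared thus changed with the TPM cut. The share of all annotated transcripts past 2-fold is not given for that pseudocount or those cuts, so these counts cannot be set beside a background there. The median log2 ratio was 0.34, 0.23 at a mean TPM of at least 5, 0.21 with TMM and 0.20 with DESeq2 size factors. In the aligned-read table the log2 ratio turned for Dpysl5-205 (0.51), Fh1-202 (2.67), Mzt2-203 (1.11) and Tdg-207 (1.28); the cause was not tested. Of the named genes' shares, 69 moved by more than the SD between libraries in the aligned-read table. Alternatives that count only long or only intronic models or leave out models that overlap another gene were chosen after seeing the data. Depth limits short models most: Cdk4-209, of 468 bases, had 160 estimated counts at 72.3 TPM in replicate 1, and Rbm5-219, of 6321 bases, had 2436 at 26.4 TPM.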
